A study of Homo sapiens with 9 samples.

Results

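The genes of HLA and antigen presentation described here are 29 named genes, taken by symbol from GENCODE release 29 on the human genome build GRCh38, out of 19922 annotated protein-coding genes. They comprise 6 class I genes, 11 class II genes, 10 genes of peptide processing and loading, and 2 transactivators. Small RNA of MDA-LM2 cells, a metastatic line of human breast cancer, was sequenced in 9 libraries: 2 with siRNA against DCGR8 (spelled as in the labels), 2 against DROSHA, 2 against TARBP2, 1 against DICER and 2 with control siRNA. The values analysed come from a series-wide list of 108742 genomic loci as deposited by the authors, named for the TCGA breast cancer cohort and for Piranha, a caller of read pile-ups. Of the 9 libraries, 0 have a column in it. No knockdown was therefore compared with its control, and the list holds no depth or level for any locus. A locus therefore says where small RNA reads piled up in the cohort, not how many. Its edges fall on a grid of 50 bases, and a locus was counted for a gene where it met at least 1 exonic base on the strand of the gene.

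Class I molecules present peptides from the cytosol to cytotoxic T cells on nearly all nucleated cells, as a heavy chain bound to β2-microglobulin. Class II molecules present peptides from the endosome to helper T cells, as a pair of an α and a β chain, and are made mainly by B cells, macrophages, dendritic cells and cells exposed to interferon-γ. Peptides for class I are cut by the proteasome, carried into the endoplasmic reticulum by the TAP transporter, trimmed there and loaded with the help of chaperones. In the class I heavy chain genes each extracellular domain is encoded by an exon of its own, and in the class II genes the membrane-distal and membrane-proximal domains likewise.

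In all 5 class I heavy chain genes a locus lay on the exon of the α2 domain, and in each gene 1 locus covered bases 79 to 108 of that exon of 276 bases. The 30 bases are shown because they are the stretch that the loci of all 5 genes have in common. They are given 5′ to 3′ on the strand of the gene, from GENCODE 29 transcripts on GRCh38, with capitals at the bases that differ from HLA-B. The positions are chr6:31356335-31356364 (minus strand) in HLA-B, chr6:31271241-31271270 (minus) in HLA-C, chr6:30490318-30490347 (plus) in HLA-E, chr6:29724251-29724280 (plus) in HLA-F and chr6:29828621-29828650 (plus) in HLA-G.
HLA-B: cctacgacggcaaggattacatcgccctga
HLA-C: cctacgacggcaaggattacatcgccctga
HLA-E: cctacgacggcaaggattaTCtcAccctga
HLA-F: cGtacgacggcaaggattacatcTccctga
HLA-G: cctacgaTggcaaggattacCtcgccctga

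On the α3 exon, also of 276 bases, 4 of the 5 heavy chain genes had a locus, and the 4 shared bases 184 to 214. HLA-F, which had no locus on this exon, is shown with them for comparison. Capitals again mark differences from HLA-B. The positions are chr6:31355379-31355409 (minus) in HLA-B, chr6:31270272-31270302 (minus) in HLA-C, chr6:30491320-30491350 (plus) in HLA-E, chr6:29829601-29829631 (plus) in HLA-G and chr6:29725214-29725244 (plus) in HLA-F.
HLA-B: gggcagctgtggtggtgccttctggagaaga
HLA-C: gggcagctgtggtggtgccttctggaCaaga
HLA-E: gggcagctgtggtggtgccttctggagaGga
HLA-G: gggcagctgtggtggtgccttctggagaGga
HLA-F: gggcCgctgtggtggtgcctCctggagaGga

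In the class II β chain genes the exon of the membrane-distal β1 domain carried loci on the strand opposite to the gene. The 4 opposite-strand loci are shown as RNA of that strand would read, with T for U, from GENCODE 29 transcripts on GRCh38. Capitals mark bases within 20-base words (20-mers) that transcripts of other genes also hold, on either strand. The positions are chr6:32584151-32584200 (plus) at HLA-DRB1, chr6:32521951-32522000 (plus) at HLA-DRB5, chr6:33080801-33080850 (minus) at HLA-DPB1 and chr6:32664851-32664900 (plus) at HLA-DQB1.
HLA-DRB1: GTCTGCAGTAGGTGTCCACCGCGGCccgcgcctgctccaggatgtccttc
HLA-DRB5: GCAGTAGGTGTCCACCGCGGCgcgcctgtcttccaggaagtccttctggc
HLA-DPB1: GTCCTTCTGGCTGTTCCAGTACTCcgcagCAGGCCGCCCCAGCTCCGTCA
HLA-DQB1: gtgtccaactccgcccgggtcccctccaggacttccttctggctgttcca

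A same-strand locus was found on the exons of 24 of the 29 genes (82.8%, exact 95% interval 64.2 to 94.2), against 35.7% of all protein-coding genes. The members carried 83 distinct exonic loci, or 0.588 loci per kb of merged exon (exact Poisson 95% interval 0.468 to 0.728), against 0.147 per kb (0.145 to 0.150) over all protein-coding genes. Intervals here cover counting error only, loci of 1 gene are not independent, and the protein-coding genes include the members. The members were also chosen with earlier results of these data known, so these comparisons describe the list and test nothing. The median gene had 0.612 loci per kb among the members and 0 among all protein-coding genes. Loci covered 4.41% of the members' exonic bases, against 0.873% over all protein-coding genes. Longer genes offer more room for a locus, so the shares were also read within bands of exonic length. All 4 members under 2000 exonic bases had a locus, against 17.3% of protein-coding genes of that length. From 2000 to under 4000 bases it was 7 of 9 members against 30.1%, from 4000 to under 8000 bases 11 of 14 against 40.5%, and at 8000 bases or more 2 of 2 against 54.7%. In each band the members' share stood above that of all genes of like length. At 8000 bases or more, however, the exact 95% interval of the 2 members (15.8 to 100%) held the 54.7%.

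The loci were unevenly spread among the genes. There were 8 members with 5 or more exonic loci, against 2.90% of all protein-coding genes: HLA-B and CALR with 8 each, HLA-E and CD74 with 7, HLA-C and TAPBP with 6, and B2M and PDIA3 with 5. Another 5 members had 3 or 4 loci, 11 had 1 or 2, and 5 had none, namely HLA-DPB1, HLA-DQA1, HLA-DMA, HLA-DMB and TAP2. Class I had 31 loci, or 1.50 per kb of exon (1.02 to 2.12). Peptide processing had 28 loci, or 0.573 per kb (0.381 to 0.828), and class II had 20, or 0.519 per kb (0.317 to 0.802). The 2 transactivators had 4 loci, or 0.121 per kb (0.0329 to 0.309), and this interval held the value of all protein-coding genes. The class I interval lay above those of the other 3 groups, whereas those of class II and peptide processing overlapped. When only loci of 50 bases or less were counted, class I had 0.821 per kb and peptide processing 0.512. That class I value lay within the interval of peptide processing for loci of all widths. No interval was computed for the narrow loci alone, so class I was not shown to stand apart there.

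**Figure D1:**
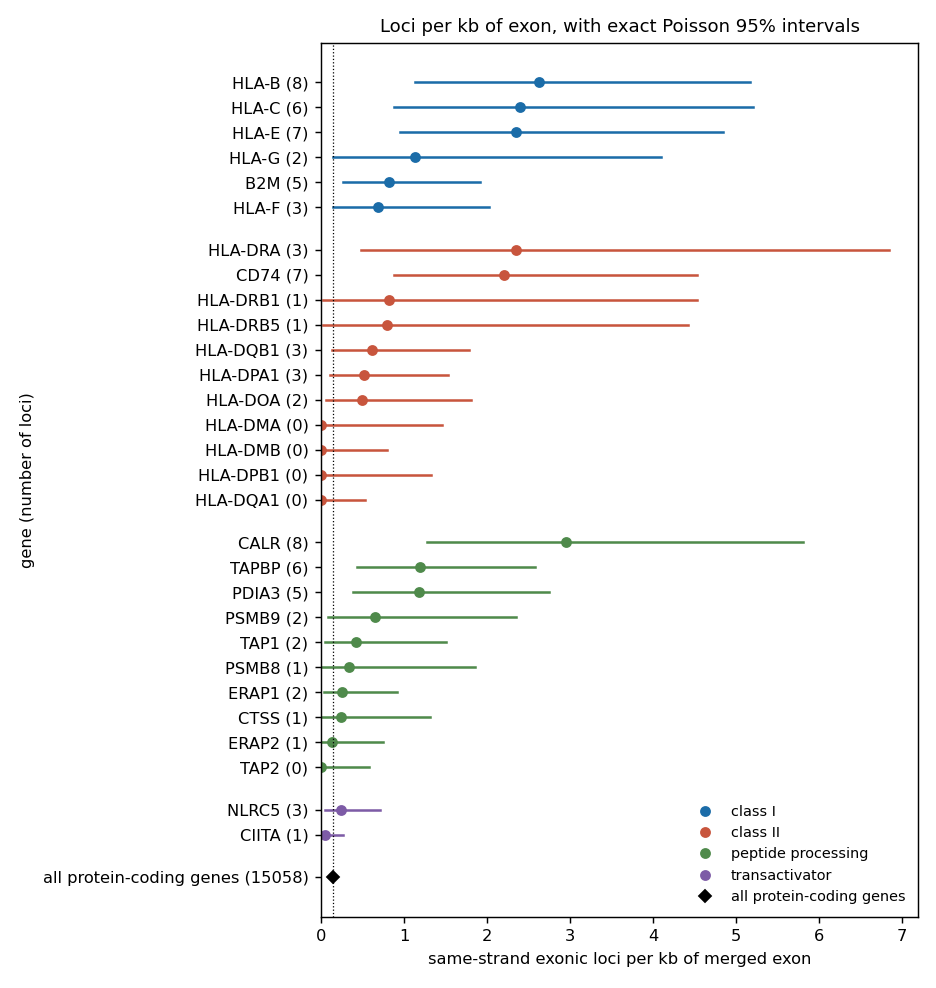
Same-strand exonic loci per kb of merged exon (horizontal axis) for each of the 29 genes, ordered within their groups, and for all protein-coding genes; bars are exact Poisson 95% intervals and the number of loci stands in brackets. CALR at 2.95 and HLA-B at 2.62 loci per kb stood highest, the 5 genes at 0 included 4 class II genes and TAP2, and the dotted line marks all protein-coding genes at 0.147.

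HLA-B and HLA-C encode classical class I heavy chains, which display a wide range of peptides. HLA-B had 8 loci, or 2.62 per kb, and 99.4% of protein-coding genes had fewer per kb. They covered 32.4% of its merged exons and 60.2% of its principal transcript, the isoform chosen for exon-by-exon counts. HLA-C had 6 loci, or 2.39 per kb, which covered 21.9% of its merged exons and 34.8% of its principal transcript. In both genes the loci reached the leader, α1, α2 and α3 exons and the 3′ untranslated region.

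Within HLA-B, exon 1, which holds the signal peptide, was covered over its whole 102 bases by the locus chr6:31357051-31357200. The α1 exon was covered over 50 of 270 bases by chr6:31356701-31356750. The α2 exon was covered over 134 of 276 bases by chr6:31356301-31356400 and chr6:31356151-31356200. The α3 exon had the largest covered share of the 3 extracellular domain exons, with 184 of 276 bases under chr6:31355251-31355500. Of the 117 bases of the transmembrane exon, 44 lay under chr6:31355101-31355150, and exon 7, of the cytoplasmic tail, had 22 of 48 bases under chr6:31354451-31354500. Exon 6, with 33 bases, had none. The last exon, which is 3′ untranslated, had 396 of 425 bases under chr6:31353901-31354350, the widest locus on any member at 450 bases.

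In HLA-C the α2 exon had 148 of 276 bases covered by chr6:31271201-31271350 and the α3 exon 100 of 276 by chr6:31270251-31270350. The locus chr6:31271601-31271650 covered 50 of 270 bases of the α1 exon, and chr6:31272051-31272100 covered 36 of 88 bases of the leader exon. The 3′ untranslated exon had 200 of 425 bases under chr6:31269051-31269150 and chr6:31268801-31268900. Its exons 5, 6 and 7, for the transmembrane segment and the cytoplasmic tail, had none.

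HLA-E, HLA-F and HLA-G are nonclassical class I heavy chains of low polymorphism; HLA-E binds signal peptides of other class I chains and is read by receptors of natural killer cells, and HLA-G is best known from the placenta. HLA-E stood close to the classical genes, with 7 loci or 2.35 per kb and 18.6% of its exonic bases covered. A locus lay on each of its exons 1 to 5, at chr6:30489501-30489550, chr6:30489751-30489800, chr6:30490301-30490350, chr6:30491251-30491350 and chr6:30491551-30491600. The last exon, 3′ untranslated and 1457 bases long, had 252 bases under chr6:30492701-30492900 and chr6:30493551-30493650. HLA-F had 3 loci (0.691 per kb), at chr6:29723401-29723450 in its 5′ untranslated region, at chr6:29724251-29724300 on the α2 exon and at chr6:29726401-29726450 in an exon of another transcript. HLA-G had 2 loci (1.13 per kb), at chr6:29828601-29828650 on the α2 exon and at chr6:29829601-29829650 on the α3 exon. For these 2 genes the interval of loci per kb reached down to 0.142 and 0.137, below the value of all protein-coding genes.

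**Figure D2:**
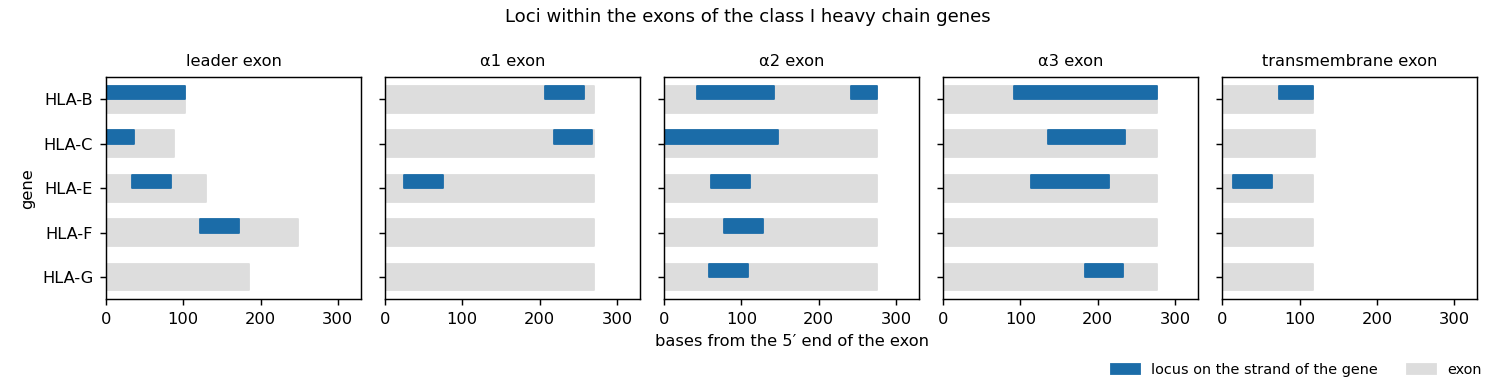
Position of same-strand loci (blue) in 5 exons of each class I heavy chain gene (grey), with bases from the 5′ end of the exon on the horizontal axis. On the α2 exon all 5 genes have a locus over bases 79 to 108, and on the α3 exon 4 of 5 have one over bases 184 to 214.

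Across the heavy chains the α2 exon was the only one of the 5 drawn exons with a locus in all 5 genes. Loci covered 31.3% of the α2 exon bases, 31.4% of the α3 bases and 31.6% of the leader bases, against 11.1% of the α1 bases and 16.0% of the transmembrane bases. A same-strand locus lay on the α2 exon in 5 of 5 genes, on the α3 exon in 4 of 5 and on the α1 exon in 3 of 5. As a background for these counts, 8.07% of the 3741 fully coding exons of 250 to 300 bases in principal transcripts had one. No such background was computed for the covered shares, and the leader and transmembrane exons are shorter than these. HLA-B and HLA-C had their α1 loci in common over bases 219 to 257, while the α1 locus of HLA-E lay at bases 26 to 75. The common stretches were noticed after the values were seen. Their exons are also alike in sequence: HLA-B and HLA-C shared 93.8% of α2 bases and 93.5% of α3 bases, and HLA-B and HLA-E shared 82.2% and 92.0%. Loci at the same place in several genes are therefore not independent where a read can be placed on more than 1 of them. The sources used here do not say how such reads were placed.

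The share of sequence under the loci that other genes hold was measured with 20-mers of the GENCODE transcripts. It came to 32.1% over the loci of the class I heavy chains, 7.71% over those of the class II HLA genes and 4.97% over those of the members outside HLA. HLA-B had 30.3% of its 836 20-mers in other genes and HLA-C 39.0% of 436. HLA-B had 127 20-mers of its own under the α3 locus and 253 under the 3′ untranslated locus. The α3 locus of HLA-G was the opposite case, with all of its 31 20-mers also in HLA-B, HLA-C or HLA-E. Of 79 member loci with at least 20 exonic bases, 47 shared no 20-mer with another gene and 3 had none of their own. What part shared sequence has in the counts was not tested.

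**Figure D3:**
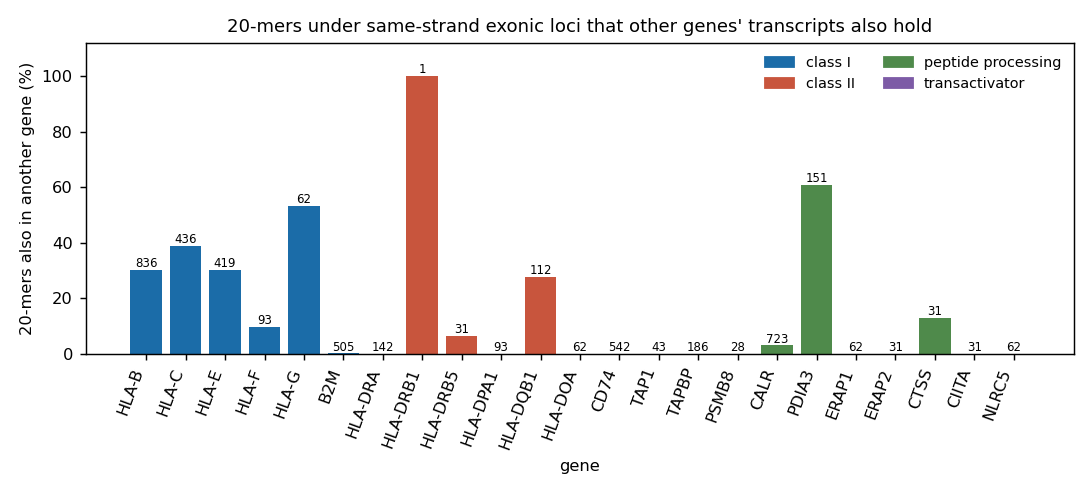
Percentage of the 20-mers under each gene's same-strand exonic loci that also occur in transcripts of other genes (vertical axis), with the number of 20-mers above each bar. HLA-G at 53.2% and PDIA3 at 60.9% shared most among genes with more than 1 20-mer, while CD74, TAPBP and HLA-DRA shared none.

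The wide locus on the α3 exon of HLA-B also entered intron 4, which is the microRNA gene MIR6891 from end to end. The intron and the hairpin are the same 93 bases, chr6:31355224-31355316 on the minus strand. The locus covered 66 of them, with all 19 bases of the 5p mature form at chr6:31355297-31355315 and none of the 21 bases of the 3p form at chr6:31355228-31355248. The mature sequences are shown from RefSeq (GRCh38.p14), 5′ to 3′, with the seed, bases 2 to 8, in capitals.
hsa-miR-6891-5p: uAAGGAGGgggaugagggg
hsa-miR-6891-3p: cCCUCAUCuuccccuccuuuc
Since the locus ran on through 184 bases of the exon, reads of the microRNA and reads of the HLA-B exon cannot be told apart in it.

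B2M encodes β2-microglobulin, the light chain of all class I molecules, and lies on chromosome 15 outside the HLA region. It had 5 loci, or 0.823 per kb (0.267 to 1.92), over 9.87% of its merged exons and 33.2% of its principal transcript. All 4 exons were met. The locus chr15:44711501-44711600 covered 78.7% of exon 1, chr15:44715501-44715650 covered 53.8% of exon 2, which encodes most of the protein, and chr15:44716301-44716350 met 22 of the 28 bases of exon 3. In the last exon, chr15:44717601-44717650 and chr15:44717751-44718000 covered 294 of 1271 bases, all 3′ untranslated. Only 0.198% of the 20-mers under these loci occurred in another gene, and none of these in another member.

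In class II, 7 of 11 genes had an exonic locus (63.6%, exact 95% interval 30.8 to 89.1), and CD74 alone carried 7 of the 20 loci. Without CD74 the 10 HLA class II genes had 13 loci, or 0.368 per kb (0.196 to 0.629), and 6 of the 10 had a locus (60%, 26.2 to 87.8). Both shares have intervals that hold the 35.7% of all protein-coding genes. CD74 encodes the invariant chain, which fills the groove of new class II molecules and steers them to the endosome. Its 7 loci gave 2.20 per kb (0.884 to 4.53) and covered 21.2% of its merged exons. They lay at chr5:150412651-150412750 in exon 1, chr5:150407151-150407300 in exon 2, chr5:150405101-150405150 in exon 5, chr5:150404701-150404750 in exon 6 and chr5:150402601-150402650 in exon 8. The other 2, at chr5:150401851-150402100 and chr5:150401651-150401700, were in exons of another transcript, and the first of them was the widest of the gene at 250 bases. None of the 542 20-mers under the CD74 loci occurred in another gene.

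HLA-DRA encodes the α chain of HLA-DR, nearly invariant between people. It had 3 loci, or 2.34 per kb (0.483 to 6.85), at chr6:32443201-32443250 on the exon of the membrane-proximal α2 domain and at chr6:32444651-32444750 and chr6:32444951-32445000 in the 3′ untranslated region. The β chain genes HLA-DRB1 and HLA-DRB5 had 1 locus each. That of HLA-DRB1, chr6:32580251-32580300, met 20 of the 24 bases of exon 5, and that of HLA-DRB5, chr6:32517701-32517750, lay at the start of the last exon. The single 20-mer of HLA-DRB1 under its locus also occurred in an HLA pseudogene.

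HLA-DPA1, the α chain of HLA-DP, had 3 loci of 50 bases (0.522 per kb). They were chr6:33069751-33069800 on the α1 exon, chr6:33068751-33068800 on exon 5 and chr6:33065201-33065250 in the 3′ untranslated region. HLA-DQB1, the β chain of HLA-DQ, had 3 loci (0.612 per kb), at chr6:32666601-32666650 on the leader exon, at chr6:32665051-32665100 with 17 bases of the β1 exon, and at chr6:32660001-32660100 in the 3′ untranslated region. HLA-DOA, the α chain of HLA-DO, which restrains peptide exchange, had 2 loci, at chr6:33009551-33009600 in the 5′ untranslated and chr6:33006101-33006150 in the 3′ untranslated region. Their partners HLA-DPB1 and HLA-DQA1 had none on exons, nor had HLA-DMA and HLA-DMB, the chains of HLA-DM, which exchanges peptides on class II molecules. With no locus, the exact upper bound was 1.32 per kb for HLA-DPB1, 0.533 for HLA-DQA1, 1.46 for HLA-DMA and 0.792 for HLA-DMB, all above the value of all protein-coding genes. None of the 5 β2 exons and 1 of the 5 membrane-proximal α2 exons, that of HLA-DRA, had a same-strand locus.

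**Figure D4:**
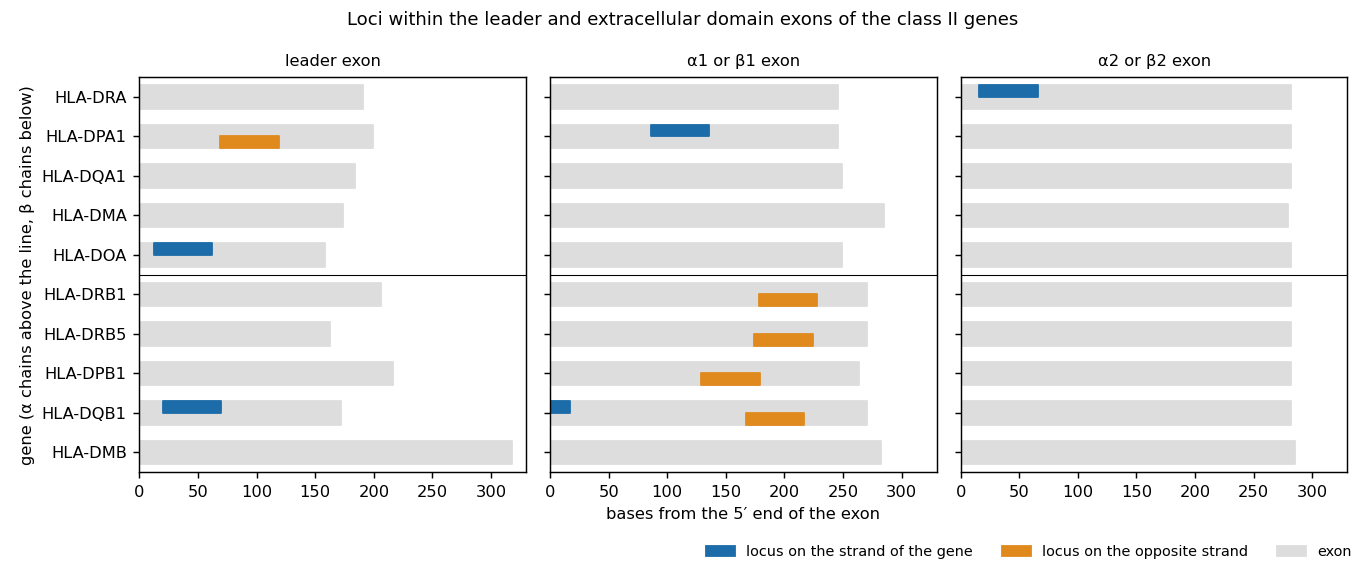
Sense loci (blue) and opposite-strand loci (orange) in the leader exon and the exons of the extracellular domains of the 10 class II HLA genes (grey), with bases from the 5′ end of the exon on the horizontal axis. Opposite-strand loci lie on the β1 exon of HLA-DRB1, HLA-DRB5, HLA-DPB1 and HLA-DQB1, and that of HLA-DMB has none.

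Over all members 83 exonic loci were in sense to the gene and 9 in antisense, a same-strand share of 90.2% (82.2 to 95.4), against 82.0% (81.5 to 82.6) over all protein-coding genes. An opposite-strand exonic locus was found in 9 of 29 members, against 14.7% of protein-coding genes, and 5 of the 9 were class II genes. On the β1 exon 4 of 5 genes had one, against 0.989% of the 3741 fully coding exons of like length, a pattern noticed after the values were seen. The loci lay at bases 179 to 228 of the exon in HLA-DRB1, 175 to 224 in HLA-DRB5, 168 to 217 in HLA-DQB1 and 130 to 179 in HLA-DPB1, counted along the gene. The first 3, on exons of 270 bases, largely coincided. The HLA-DPB1 exon has 264 bases, so the same base number need not be the same place in it. As printed, the HLA-DPB1 locus opened with the bases that end the HLA-DRB5 locus, so by sequence these loci met only at their edges. GENCODE 29 has no exon on the opposite strand at any of the 4 positions. Of the 124 20-mers under the 4 loci 12.1% occurred in transcripts of other genes, and none of the 31 under the HLA-DQB1 locus did. The HLA-DRB1 and HLA-DRB5 exons share 90.4% of their bases, so a read could match both.

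The other opposite-strand exonic loci were single ones, at HLA-C, the leader exon of HLA-DPA1, exon 2 of TAP2, exon 7 of TAPBP and PSMB8. The locus opposite PSMB8, chr6:32844101-32844150, is the same one that was counted for PSMB9 on its own strand. The remaining 4 lay where the annotation has no exon on that strand.

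Class II genes are made mainly by cells of the immune system, and markers of such cells were counted in the same way, against 35.7% of all protein-coding genes with an exonic locus. Macrophage and monocyte markers had one in 4 of 5 genes (exact 95% interval 28.4 to 99.5%), with 8 on CD163, 4 on LYZ, 3 on CD14, 1 on CSF1R and none on CD68. B cell markers had one in 0 of 4 genes and dendritic cell markers in 0 of 4 (0 to 60.2% for either list), and T cell markers in 1 of 4 (0.631 to 80.6%), that being CD3E. PTPRC, found on all leukocytes, had none, and the epithelial markers had one in 5 of 5 (47.8 to 100%). The intervals of the immune cell lists all hold the share of all protein-coding genes, so at these list sizes none of them was set apart from it. Since the list gives no samples, which cells gave the class II loci was not tested, and more cells of a type cannot be told apart from more RNA per cell.

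Among the genes of peptide processing and loading 9 of 10 had an exonic locus (90%, exact 95% interval 55.5 to 99.7), against 35.7% of all protein-coding genes. Among the 9, PSMB9 was counted only through loci that also lay on exons of another annotated gene. With such loci left out, PSMB9 had none. The chaperones of the loading complex had most. CALR, calreticulin, a calcium-binding chaperone of the endoplasmic reticulum, had 8 loci or 2.95 per kb (1.27 to 5.81), more per kb than 99.6% of protein-coding genes. The loci covered 45.5% of its principal transcript. They lay on exons 1, 3, 4, 5, 6 and 7, at chr19:12938601-12938650, chr19:12939451-12939600, chr19:12940101-12940150, chr19:12940251-12940300, chr19:12940551-12940600 and chr19:12940751-12940900. The last exon held the widest, chr19:12943701-12944050, with 338 exonic bases of which 198 were coding, and chr19:12944401-12944450 in the 3′ untranslated region.

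PDIA3, a disulfide isomerase of the loading complex, had 5 loci (1.18 per kb), each of 50 bases. They lay on coding exons 1, 3, 7, 9 and 10, at chr15:43746601-43746650, chr15:43756701-43756750, chr15:43765951-43766000, chr15:43768501-43768550 and chr15:43769601-43769650. Of the 151 20-mers under them, 92 occurred in transcripts of other genes, including 27 of 27 on exon 10, so these counts are uncertain. TAPBP, tapasin, which holds the heavy chain at the peptide transporter, had 6 loci (1.19 per kb). Only 2 lay in its principal transcript, chr6:33313701-33313750 in exon 2 and chr6:33305301-33305350 in exon 4. The other 4, at chr6:33301201-33301250, chr6:33301001-33301050, chr6:33300251-33300300 and chr6:33299901-33299950, were in exons of another transcript.

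The transporter subunits differed, with 2 loci on TAP1 (0.416 per kb), at chr6:32850301-32850350 and chr6:32848751-32848800, and none on TAP2, whose exact upper bound was 0.577 per kb. The intervals of the subunits overlapped. PSMB8 and PSMB9 encode catalytic subunits of the immunoproteasome. PSMB8 had 1 locus, chr6:32841001-32841050 on its last exon. The 2 loci of PSMB9, chr6:32844101-32844150 and chr6:32844801-32844850, each met only 15 exonic bases, none of them in the principal transcript, and both also lay on exons of another annotated gene. The aminopeptidases that trim peptides in the endoplasmic reticulum had 2 loci on ERAP1 (0.252 per kb) and 1 on ERAP2 (0.135 per kb). CTSS, cathepsin S, which cuts the invariant chain in the endosome, had 1 (0.237 per kb).

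CIITA is the transactivator of class II genes and NLRC5 that of class I genes. CIITA had 1 locus in 20757 exonic bases (0.0482 per kb), chr16:10929751-10929800 in the 3′ untranslated region. NLRC5 had 3 (0.242 per kb), of which chr16:57029951-57030000 met 6 bases of exon 10, chr16:57041501-57041550 lay on exon 18 and chr16:57061551-57061600 in an exon of another transcript.

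Beyond the members, 19 of 38 other genes of the pathway had an exonic locus (50%, exact 95% interval 33.4 to 66.6), against 35.7% of all protein-coding genes, a share within that interval. Their median was 0.0655 loci per kb, against 0 over all protein-coding genes. Most loci were found on CANX, calnexin, with 13, CTSB and HSPA5 with 9 each and CTSD with 8. Calnexin and HSPA5 are chaperones of the endoplasmic reticulum, and CTSB and CTSD are endosomal proteases. Among those without a locus were CD1D, CREB1, HLA-DOB and HLA-DQA2.

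In introns the members had 18 same-strand loci, or 0.0360 per kb (0.0213 to 0.0569), against 0.0184 per kb over all protein-coding genes. The density in exons was 16.3 times that in introns among the members and 7.99 times over all protein-coding genes. The ratio was 21.9 in class I, 11.6 in class II, 32.6 in peptide processing and 4.15 in the transactivators. An intronic locus was found in 8 of 29 members, against 44.1% of protein-coding genes with introns. All 7 intronic loci of class I were those of HLA-B, and they lay outside its principal transcript. GENCODE 29 has a transcript of HLA-B that reaches over HLA-C, and 4 of the 7 lay on exons of HLA-C. Those 4 were therefore also counted as exonic loci of HLA-C. With loci on exons of another gene left out of both counts, the members' density in exons was 20.2 times that in introns.

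**Figure D5:**
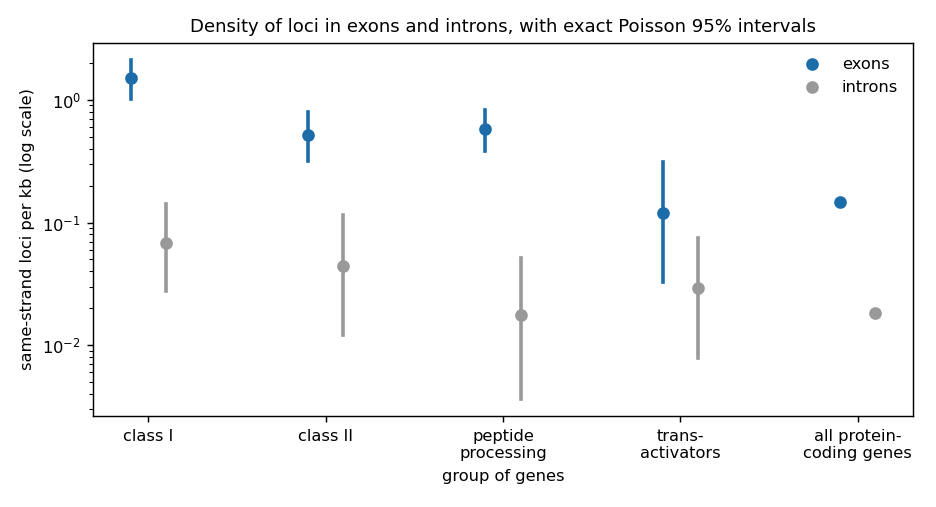
Same-strand loci per kb of exon (blue) and of intron (grey) on a log axis, by group of genes, with exact Poisson 95% intervals. Exons stand above introns in each group, from 1.50 against 0.0684 per kb in class I to 0.121 against 0.0290 in the transactivators, whose intervals overlap, and 0.147 against 0.0184 over all protein-coding genes.

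Along the principal transcripts loci covered 8.38% of the members' 5′ untranslated, 8.17% of their coding and 5.05% of their 3′ untranslated bases, against 2.29%, 1.38% and 0.668% over all protein-coding genes. The transactivators held 13535 of the members' 36437 3′ untranslated bases, with only 50 of them covered, which lowered the pooled 3′ share. Of the 83 loci, 55 met coding bases, 15 lay in 3′ untranslated and 3 in 5′ untranslated regions, and 10 in exons of another transcript. In class I the covered shares were 32.1%, 24.4% and 28.2%, so no part of the transcripts stood out. The first exon of the principal transcript had a locus in 9 of 29 members (HLA-B, HLA-C, HLA-E, HLA-F, B2M, HLA-DOA, CD74, CALR and PDIA3), against 13.7% of protein-coding genes. Loci of 100 bases or more made up 26.5% of the members' loci (17.4 to 37.3), against 14.1% over all protein-coding genes. They were 14 of 31 in class I, 5 of 20 in class II, 3 of 28 in peptide processing and 0 of 4 in the transactivators. Among the other protein-coding genes in the span of the members on chromosome 6 they made up 32.8%. The median GC content was 54% under the members' loci and 52% over their transcripts cut into 50-base tiles. The direction differed by group, with 56.25% against 58% in class I and 54% against 52% in class II. It was 51% against 46% in peptide processing and 56% for both in the transactivators.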

How the data were processed

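Small RNA libraries were made from 9 samples of MDA-LM2, per the labels' protocols. The submitters' processing notes name hg38, cutadapt, Bowtie2 2.2.8, SAMtools and bedtools. The authors deposited 1 list of 108742 loci in BED form, whose score column is 1 throughout and was not used. All loci end on a grid of 50 bases and all but 11 start on it. The sources used here do not give the caller's version, threshold, control, sample number or handling of reads with several positions, so the depth is unknown.

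Positions were counted from 1 and matched by strand to GENCODE 29 genes (overlap of at least 1 base, merged exons) with Python 3.11.15, numpy 2.4.6 and scipy 1.17.1; figures used matplotlib 3.10.9. The principal transcript was that with the best APPRIS tag, then the longest coding sequence. Counting was tested on simulated data, where 200 of 200 planted genes were recovered exactly, and equalled bedtools in 19922 of 19922 genes. Shares carry Clopper-Pearson and densities Poisson 95% intervals. No test was run, since the list has no samples and the members and lists were chosen with earlier results of these data known. All 29 members are named; positions are given for members with 3 or more loci and wherever a single locus matters. Of the other pathway genes, up to 4 with most loci and up to 4 without are named. Alternatives varied overlap, width, transcript, strand and shared exons. No genome sequence was used, so uniqueness was checked against transcripts alone.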

Additional observations from a re-analysis of the deposited data

How the results depend on the processing

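The number of members with a locus ranged from 21, with loci wholly in exons, to 26, with strand ignored. Counting loci of 50 bases or less put class I at 0.821 and peptide processing at 0.512 per kb. The class I value lay within the interval of peptide processing for loci of all widths, so class I was not shown to stand apart there. On principal transcripts alone it was 2.83 per kb for class I and 1.04 for class II, against 0.193 over all protein-coding genes, and exons stood 33.0 times above introns. Without HLA-B class I had 1.30 per kb, without CD74 class II 0.368, and without CALR peptide processing 0.433. The other values of the 4 groups and of the strand share stayed within the intervals of the values reported. With at least 50% of a locus in exons, HLA-DRB1 and PSMB9 lost theirs. No paired analysis was possible because the list has no column for any library. The 50-base grid limits positions, and intervals cover counting error only.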

Other observations

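Of 14 HLA pseudogenes, 7 had a same-strand exonic locus, with 3 on HLA-H and 1 each on HLA-J, HLA-K, HLA-L, HLA-V, HLA-W and HLA-DRB6. Several lay where the loci of their coding relatives lay. In HLA-H the locus chr6:29888551-29888600 covered bases 85 to 134 of an exon of 276 bases, and chr6:29889401-29889550 covered bases 74 to 223 of the next, of 277 bases. HLA-K had bases 74 to 123 of a 275-base exon under chr6:29927251-29927300, and HLA-J had bases 84 to 133 of a 276-base exon under chr6:30007401-30007450. HLA-DRB6, like HLA-DRB1, had a same-strand locus on an exon of 24 bases, at chr6:32553351-32553400. It also had an opposite-strand locus on its exon 2, at chr6:32558001-32558050. That locus lay at bases 137 to 186 of the exon, against 179 to 228 in HLA-DRB1.

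The HLA region, taken as the span of the members on chromosome 6 (chr6:29722775-33314387), held 368 loci, of which 50 (13.6%) lay on exons of its 20 members. Of its 129 protein-coding genes that are no members, 45 had an exonic locus (34.9%, exact 95% interval 26.7 to 43.8), against 35.7% of all protein-coding genes. Pooled, the 129 genes had 0.433 loci per kb of exon, against 0.147 over all protein-coding genes. Their median gene had 0 loci, and the most on a single gene was 28.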
